A study of Mus musculus with 26 samples.

Results

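The comparison set mouse embryonic fibroblasts carrying a retroviral c-myc vector against the same cells carrying the empty vector, over 3 parental lines. Members were chosen by title: the 9 arrays titled c-myc and the 9 titled empty retroviral vector, 18 of the 26 arrays of the series. The other 8 arrays, of cells with a v-src vector, entered only where c-myc is set against v-src and in the estimate of the spread. Per the titles and characteristics, which the samples' free-text description contradicts by naming another kind of material, fibroblasts of the lines WA, WB and WC had been immortalized and then carried pBabe-puro with human c-myc, pBabe-puro with v-src (a viral tyrosine kinase oncogene), or pBabe-puro with no insert, the control. Every cell group was therefore both immortalized and infected, and the empty vector cells are not primary fibroblasts. How the lines were immortalized, whether an infected population was a pool or 1 clone, and the age of the embryos are not given in the sources used here. According to the series' text, the arrays served to check a signature of anchorage-independent growth drawn from breast cancer lines of human origin.

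c-Myc is a transcription factor that binds DNA as a dimer with Max, most tightly at the E-box CACGTG, and it also lowers transcription of some genes through partners such as Miz1. It is best known for raising genes that build ribosomes, make nucleotides and prepare DNA for replication. In fibroblasts, raised c-Myc is a classic cooperating oncogene, and these cells otherwise make much of the matrix of connective tissue.

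Each of the 6 groups of line and vector had 3 arrays. An array gave 1 signal for each of 45101 probe sets, short-oligonucleotide sets that each target a transcript, as a linear MAS5 intensity scaled to the same trimmed mean. Median signals of the arrays lay between 89.0 and 134.6. Every array correlated better, on average, with the arrays of its own line and vector than with any array of another group. The number of arrays limits the precision. Nothing in the labels says that the 3 arrays of a group came from separate cultures, so they were averaged on the log2 scale and the lines served as replicates (n = 3 lines). A log2 change is c-myc minus empty vector on log2(signal + 23), so it understates changes of weak signals. A gene was called when the adjusted p of limma, taken over all 13018 genes tested, was under 0.05. Where the lowest, median and highest signals are given, they are over the 9 arrays of a vector.

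In the c-myc cells, many genes of ribosome synthesis, splicing, nucleotide synthesis, DNA replication and mitochondrial gene expression were higher. Many genes of collagens, laminins and other matrix, their proteases and receptors, lysosomal enzymes and stress responses were lower. Of the 13018 genes, 1306 were higher and 1270 lower with c-myc, which is 10.0% and 9.76% of those tested, together 19.8%. Falls were larger than rises. Their median log2 change was -0.71 among falls (-0.62 in WB, the smallest, -0.75 in WA and -0.70 in WC), and 0.55 among rises (0.44 in WB, again the smallest, 0.57 in WA and 0.62 in WC). At least 2-fold lower were 324 genes (2.49% of those tested) and at least 2-fold higher 77 (0.591%). At 4-fold or more, the falls numbered 36 and the rises 5. The median over all genes was 0.04, close to 0. All 9 c-myc arrays lay above all 9 empty vector arrays for 491 genes (3.77%) and below all of them for 437 (3.36%).

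Calls were more frequent among genes of strong signal. Of the 3255 genes of highest mean level 19.7% were higher and 15.2% lower, and of the 3255 of lowest mean level 1.97% and 3.29%. The median SE of the log2 change was 0.105 among the strongest and 0.206 among the weakest, so small changes could be detected mainly among strong signals. The array of WC c-myc replicate 1 stood nearest to the empty vector cells among the WC c-myc arrays. Its median log2 change over the called rises was 0.52, against 0.67 and 0.72 on the other two, and over the called falls -0.53, against -0.79 and -0.82. Without it 2551 genes were called.

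The genes of the Myc network were described first, because the mouse array can show the cells' own Myc. The probe set was designed on the mouse transcript and may miss the vector's human message, whose level was not measured here. Myc had signals of 159, 268 and 176 on the WA c-myc arrays, against 3060, 2910 and 3602 on the WA empty vector arrays. In WB they were 1187, 896 and 1276 with c-myc, against 2908, 3020 and 3335 with the empty vector. In WC they were 260, 248 and 289 with c-myc, against 1565, 1822 and 2063 with the empty vector. All 9 c-myc arrays lay below all 9 empty vector arrays, and the WB c-myc arrays were the highest of the c-myc cells. The log2 change was -2.66 (SE 0.43, adjusted p = 0.00751, n = 3 lines). It was smallest in WB, at -1.46, against -3.87 in WA and -2.66 in WC, and the difference between lines passed the limma F test (adjusted p = 9.94e-08). Myc was also lower than in v-src cells, by a log2 difference of -2.75 (adjusted p = 0.00441).

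Of the 15 genes tested of the network list, 1 was called higher (6.67%) and 3 lower (20%), where 10.0% and 9.76% of all genes were. Mxi1, which codes for a Max partner that opposes Myc, had signals of 1262, 2022 and 2792 with c-myc, against 730, 906 and 1124 with the empty vector. Its c-myc arrays all lay above its empty vector arrays. The log2 change was 1.08 (SE 0.12, adjusted p = 0.00308). Against v-src cells the log2 difference was -0.43 (adjusted p = 0.0341), with v-src signals of 2569, 2671 and 3159. The list also held Txnip, an inhibitor of thioredoxin and of glucose uptake and not a Max partner. Its signals were 400, 652 and 953 with c-myc, against 1081, 1469 and 2124 with the empty vector. The groups did not overlap, and the log2 change was -1.29 (SE 0.12, adjusted p = 0.00244). Mycn was called at a log2 change of -0.24 (adjusted p = 0.0267), a call lost without WA empty replicate 3 (adjusted p = 0.0597) or without WC empty replicate 1 (adjusted p = 0.0753). A random block, the median of arrays, a fit without intensity trend and one with no filter lost it too (adjusted p = 0.0635 to 0.140). The probe set kept had a very high mean log2 level, 13.9. The gene's other probe sets, at 5.92 and 5.07, did not pass the filter and changed by 0.09 and 0.11. Whether the probe set kept measures Mycn was not tested. Max, the obligate partner, had a change of 0.37 (adjusted p = 0.102), and Mlxip one of 0.35 (adjusted p = 0.0610). Neither passed, nor did the Max partners Mxd1, Mxd3, Mxd4, Mnt and Mga, whose log2 changes lay between -0.47 and 0.25.

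Most ribosome synthesis genes rose. The 5 lists cover RNA polymerase I, which transcribes rRNA genes, the snoRNPs that modify rRNA, the factors of the small and the large subunit and the RNA exosome. Of 149 genes tested, 109 were higher and 0 lower, or 73.2%, where 10.0% of all genes were higher. The median log2 change was 0.58, highest in WC at 0.73, against 0.52 in WA and 0.47 in WB, and 145 of the 149 changes were above 0. By list, 14 of 19 genes of RNA polymerase I and its factors rose, 14 of 19 snoRNP and rRNA modification genes, 31 of 45 small subunit factors, 40 of 52 large subunit factors and 10 of 14 exosome genes. An F test of the c-myc effect between lines called 28 of the 149 genes, or 18.8%, where 16.2% of all genes did.

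Nolc1, a nucleolar chaperone of snoRNPs, had signals of 4589, 6299 and 7535 with c-myc, against 1959, 3178 and 3640 with the empty vector. No empty vector array reached the lowest c-myc array, and the log2 change was 1.08 (SE 0.11, adjusted p = 0.00287). Nob1, the nuclease that trims the rRNA of the small subunit, had signals of 1878, 2229 and 3007 with c-myc, against 852, 1118 and 1566 with the empty vector. Again the vectors did not overlap, with a log2 change of 1.07 (SE 0.11, adjusted p = 0.00289). Tcof1, the treacle protein of the nucleolus, rose by 0.92 (SE 0.12), and Polr1c, a subunit shared by RNA polymerases I and III, by 0.89 (SE 0.10). Ruvbl2, an AAA ATPase that helps assemble snoRNPs and other complexes, had signals of 3415, 3994 and 4920 with c-myc, against 1079, 1775 and 2559 with the empty vector. It lay higher on every c-myc array than on any empty vector array. Its log2 change of 1.17 (SE 0.15, adjusted p = 0.00431) was larger in WC, at 1.64, than in WA and WB, at 0.92 and 0.95, and differed between lines (F test adjusted p = 0.00616).

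The promoters of 4 ribosome synthesis genes are shown because they place the E-box that c-Myc and Max bind beside the start of genes that rose. They are the rises of the RNA polymerase I, snoRNP and subunit lists with the largest log2 changes among those whose window holds CACGTG, a choice that used the changes. Each window runs from 250 bases before to 50 after a transcript start in RefSeq (GRCm38.p6), 5′ to 3′ on the gene's strand, with CACGTG in capitals. The windows lie at chr10:40246990-40247289 on the minus strand for Rpf2, chr11:3963725-3964024 on the plus strand for Pes1, chr4:32656869-32657168 on the plus strand for Mdn1 and chr17:33940473-33940772 on the plus strand for Wdr46.
Rpf2: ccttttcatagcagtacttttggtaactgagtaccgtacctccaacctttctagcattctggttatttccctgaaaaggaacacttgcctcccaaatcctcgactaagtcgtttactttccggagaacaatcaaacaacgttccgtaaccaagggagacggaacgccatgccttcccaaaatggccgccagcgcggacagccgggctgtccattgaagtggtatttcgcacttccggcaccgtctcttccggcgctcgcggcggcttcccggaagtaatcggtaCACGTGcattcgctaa
Pes1: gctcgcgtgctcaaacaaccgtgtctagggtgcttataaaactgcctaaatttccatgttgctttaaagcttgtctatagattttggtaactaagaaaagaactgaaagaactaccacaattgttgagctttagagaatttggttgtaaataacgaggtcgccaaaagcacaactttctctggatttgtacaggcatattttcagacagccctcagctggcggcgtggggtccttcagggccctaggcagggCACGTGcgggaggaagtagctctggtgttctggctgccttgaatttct
Mdn1: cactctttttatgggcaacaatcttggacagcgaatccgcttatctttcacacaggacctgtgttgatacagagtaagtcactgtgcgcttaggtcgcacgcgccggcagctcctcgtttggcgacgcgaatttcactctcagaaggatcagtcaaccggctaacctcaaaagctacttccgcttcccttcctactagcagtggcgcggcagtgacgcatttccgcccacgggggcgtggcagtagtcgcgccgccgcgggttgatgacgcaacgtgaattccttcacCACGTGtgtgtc
Wdr46: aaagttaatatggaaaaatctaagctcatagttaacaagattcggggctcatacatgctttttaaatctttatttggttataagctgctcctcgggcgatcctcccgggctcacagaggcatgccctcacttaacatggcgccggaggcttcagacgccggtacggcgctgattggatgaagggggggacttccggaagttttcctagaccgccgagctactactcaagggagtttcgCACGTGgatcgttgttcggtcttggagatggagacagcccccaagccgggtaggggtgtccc
Each window holds CACGTG once, and in Rpf2 it is shown for 1 of the gene's 2 windows.

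Rpf2, which brings the 5S RNP into the large subunit, had signals of 1402, 1810 and 2133 with c-myc, against 513, 779 and 946 with the empty vector. Every c-myc array was above every empty vector array, with a log2 change of 1.16 (SE 0.12, adjusted p = 0.00277). Its other probe sets changed by 1.06 and -0.48. Pes1 and Mdn1, a scaffold and a remodelling ATPase of the maturing large subunit, rose by 0.97 (SE 0.13, adjusted p = 0.00461) and 0.93 (SE 0.18, adjusted p = 0.0118). The Mdn1 call was lost with the mean of its probe sets (0.62, adjusted p = 0.0580). Wdr46, a small subunit factor, rose by 0.82 (SE 0.16, adjusted p = 0.0133), and its c-myc signals of 2850, 3402 and 3928 lay above its empty vector signals of 1135, 2237 and 2771.

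CACGTG, searched on both strands, was in the window of 14.0% of rises (154 of 1097 genes with a window), 10.75% of falls (109 of 1014) and 11.2% of all tested genes with a window (1175 of 10452). Over all 27025 genes of the promoter table it was in 8.09%. The 95% Wilson intervals were 12.1 to 16.2% for rises and 8.99 to 12.8% for falls, and cover counting error only. In the tenth of genes with the highest changes the share was 14.1%, against 9.37% in the tenth with the lowest. Within the RNA polymerase I, snoRNP and subunit lists, the exosome left out, 17 of 84 rises held it (20.2%), and 7 of 30 genes not called (23.3%). Their intervals, 13.0 to 30.0% and 11.8 to 40.9%, overlap widely, so these counts cannot tell whether the motif separates the genes. The related CACATG was in 9.48% of rises, 9.57% of falls and 10.6% of all tested genes, and the AP-1 motif TGANTCA in 4.10%, 7.0% and 6.78%. By GC content of the window, from the lowest-GC group of genes to the highest of 4, CACGTG was in 13.2%, 12.3%, 12.3% and 18.5% of rises, against 8.12%, 11.6%, 13.0% and 12.3% of all tested genes. The share in rises was above that of all tested genes in 3 of the 4 groups and below it in the third. A gene could have more than 1 window, windows of rises and falls had mean GC contents of 61.2% and 61.9%, against 60.3% over all tested genes, and a match is a run of letters and no measured binding.

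**Figure D1:**
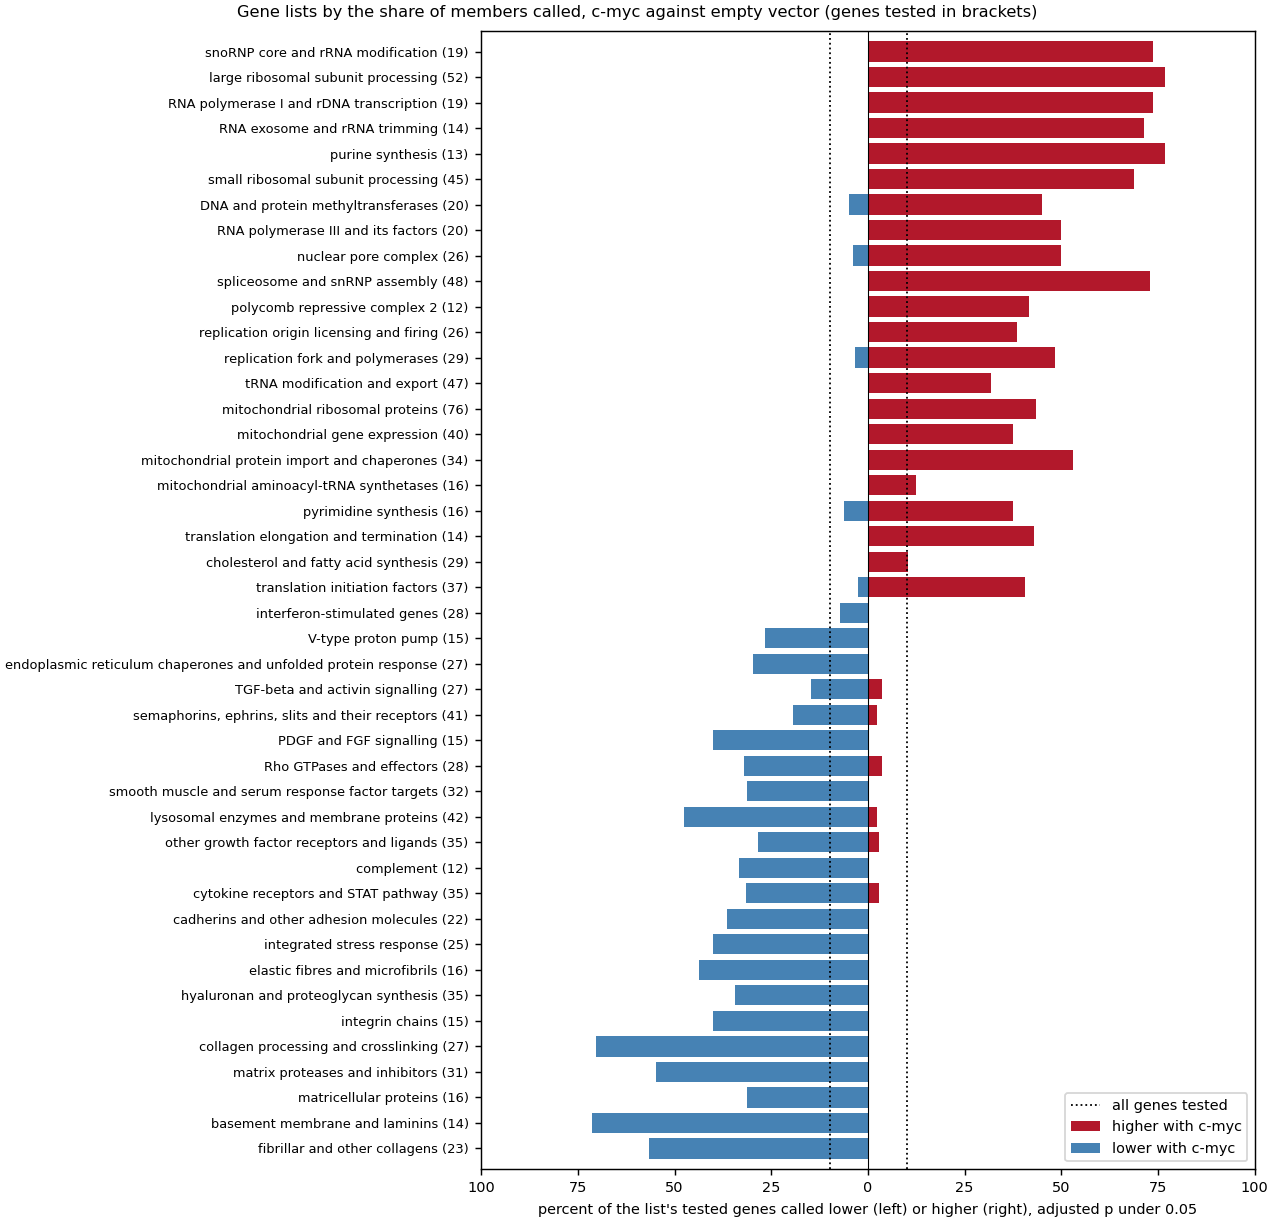
Bars give the percent of a list's tested genes that were called higher with c-myc (right, red) or lower (left, blue). The lists shown have 12 or more genes tested and the highest or lowest medians of log2 change, from highest at the top to lowest at the bottom, and dotted lines mark 10.0% and 9.76%, the shares over all genes tested. Ribosome synthesis and purine lists reach beyond the right line with no fall, and collagen, laminin and protease lists beyond the left line with no rise.

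Shares of rises varied among other steps of RNA and protein synthesis, beside the 10.0% over all genes. Of 48 spliceosome and snRNP assembly genes, 35 rose (72.9%) and 0 fell, with a median log2 change of 0.39. Gemin5, which loads Sm proteins on snRNAs, had signals of 1365, 1698 and 1867 with c-myc, against 406, 731 and 1171 with the empty vector. The vectors did not overlap, and the log2 change of 1.12 (SE 0.16, adjusted p = 0.00483) was largest in WC, at 1.55. Prmt5, the arginine methyltransferase of Sm proteins, rose by 0.78 (SE 0.09). RNA polymerase III and its factors had 10 of 20 genes up, tRNA modification and export 15 of 47, and nuclear pore genes 13 of 26 with 1 fall. Translation initiation factors had 15 of 37 up and 1 down, led by the poly(A)-binding protein Pabpc4 with a rise of 0.67 (SE 0.09). Nearer to all genes, cytosolic aminoacyl-tRNA synthetases had 4 of 22 up (18.2%) and 2 down (9.09%), with a median change of 0.03. The 47 cytosolic ribosomal protein genes had 7 rises (14.9%), a median change of 0.13, and 0 genes that differed between lines.

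Protein folding and turnover genes also held many rises, beside the 10.0% over all genes. TRiC and prefoldin, which fold actin and tubulin, had 7 of 15 up, heat shock proteins and cochaperones 10 of 25 and proteasome subunits 13 of 35, with 0 falls in these lists. Fkbp4, a cochaperone of Hsp90, had signals of 3871, 4660 and 5191 with c-myc, against 1540, 2108 and 2601 with the empty vector. The groups lay fully apart, with a log2 change of 1.13 (SE 0.11, adjusted p = 0.00244). Hsph1, a nucleotide exchange factor for Hsp70, rose by 1.11 (SE 0.14).

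Nucleotide synthesis genes were among the rises. Of 13 purine synthesis genes, 10 rose (76.9%, where 10.0% of all genes did) and 0 fell, with a median of 0.52. Gart, which carries 3 steps of the purine pathway, had signals of 2986, 4034 and 4561 with c-myc, against 1387, 1912 and 2586 with the empty vector. All c-myc arrays were higher than all empty vector arrays, with a log2 change of 1.04 (SE 0.11, adjusted p = 0.00284). Prps1, which makes the ribose phosphate donor, rose by 0.96 (SE 0.09), and Ppat, the committed step, by 0.90 (SE 0.12). Pyrimidine synthesis had 6 of 16 up (37.5%) and 1 down, with a median of 0.32, among the rises Cad, the multifunctional first enzyme, at 0.95 (SE 0.12). In one-carbon and serine metabolism 4 of 16 rose and 1 fell. The cytosolic folate enzyme Mthfd1 rose by 1.04 (SE 0.14), while the mitochondrial Aldh1l2 fell by 1.50 (SE 0.19). Odc1, the first enzyme of polyamine synthesis and a textbook target of Myc, had signals of 9270, 10067 and 12714 with c-myc, against 5798, 6789 and 9045 with the empty vector. The highest empty vector array was just under the lowest c-myc array, and the log2 change was 0.59 (SE 0.08, adjusted p = 0.00427).

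Mitochondrial gene expression, ribosome and import lists together had 66 of 150 genes up (44.0%) and 0 down, where 10.0% of all genes rose. The median change of these genes was 0.34. Their median was lower in WB, at 0.21, than in WA and WC, at 0.37 and 0.49. Noa1, a GTPase needed for the mitochondrial ribosome, had signals of 1248, 1553 and 2409 with c-myc, against 545, 678 and 1087 with the empty vector. Its groups did not overlap, and the log2 change was 1.23 (SE 0.13, adjusted p = 0.00286). Mrps5 and Mrpl42, proteins of the small and large mitochondrial subunit, rose by 0.94 (SE 0.11) and 0.82 (SE 0.09). Respiratory chain genes had 20 of 78 up with a median of 0.19, among them Cyc1 of complex III at 0.58 (SE 0.09), and the tricarboxylic acid cycle 8 of 27. Ndufaf6, an assembly factor of complex I, had signals of 508, 696 and 783 with c-myc, against 153, 299 and 316 with the empty vector. It lay apart between the vectors in all 3 lines, with log2 changes between 1.18 and 1.29.

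Cell cycle genes did not move as one. DNA replication lists had 24 of 55 genes up (43.6%) and 1 down, where 10.0% of all genes were higher and 9.76% lower. Nearer to these shares, mitotic spindle and checkpoint genes had 2 of 28 up (7.14%). Cyclins, their kinases and inhibitors had 4 of 32 up (12.5%) and 6 down (18.8%). Cdt1, which licenses origins, had signals of 5091, 5960 and 7016 with c-myc, against 2683, 3266 and 4308 with the empty vector. The c-myc arrays were all higher, with a log2 change of 0.84 (SE 0.08, adjusted p = 0.00262). Mcm5 of the replicative helicase rose by 0.85 (SE 0.10), and Rfc5 of the clamp loader by 0.93 (SE 0.12). Both mitotic calls, Cenpa and Cdc20, were lost without an intensity trend (adjusted p = 0.0519 for Cenpa and 0.0774 for Cdc20) and without each line, and the effect differed between lines for 15 of the 28 mitotic genes. The mitotic list had a median change of 0.32 in line WA, against -0.11 in WB and 0.47 in WC. The inhibitor Cdkn2b, or p15Ink4b, a gene that c-Myc and Miz1 are known to repress, had signals of 809, 1326 and 1570 with c-myc, against 2087, 2495 and 5659 with the empty vector. It was lower on every c-myc array, with a log2 change of -1.20 (SE 0.13, adjusted p = 0.00298). Skp2, which marks the inhibitor p27 for destruction, rose by 0.76 (SE 0.13), and Gadd45a, a growth arrest gene, fell by 1.15 (SE 0.25).

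Several single genes rose more. Among the 12 rises with the largest change in their weakest line, Ydjc, a predicted deacetylase, had signals of 842, 1878 and 2240 with c-myc, against 160, 341 and 677 with the empty vector. The WC arrays were the lowest with either vector, and the vectors did not overlap. The log2 change was 2.08 (SE 0.16, adjusted p = 0.00202), with 1.80 in WA, 2.32 in WB and 2.12 in WC. Fam185a had signals of 638, 912 and 1152 with c-myc, against 235, 285 and 449 with the empty vector, which lie apart, and rose by 1.47 (SE 0.12). E2f5, a transcription factor of the E2F family, changed by 1.85 on the probe set kept, but its other probe sets changed by -0.10 each. Its signals of 1304, 2233 and 3792 with c-myc overlapped those of 112, 508 and 2059 with the empty vector. Tfrc, the transferrin receptor that brings iron into cells, had signals of 4967, 5949 and 7429 with c-myc, against 1856, 2730 and 3620 with the empty vector. Its groups lay apart, with a log2 change of 1.21 (SE 0.09, adjusted p = 0.00202). Slc16a1, a lactate carrier, rose by 1.34 (SE 0.26, adjusted p = 0.0121). Of 22 genes of glycolysis and lactate export only 2 rose (9.09%), where 10.0% of all genes did.

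**Figure D2:**
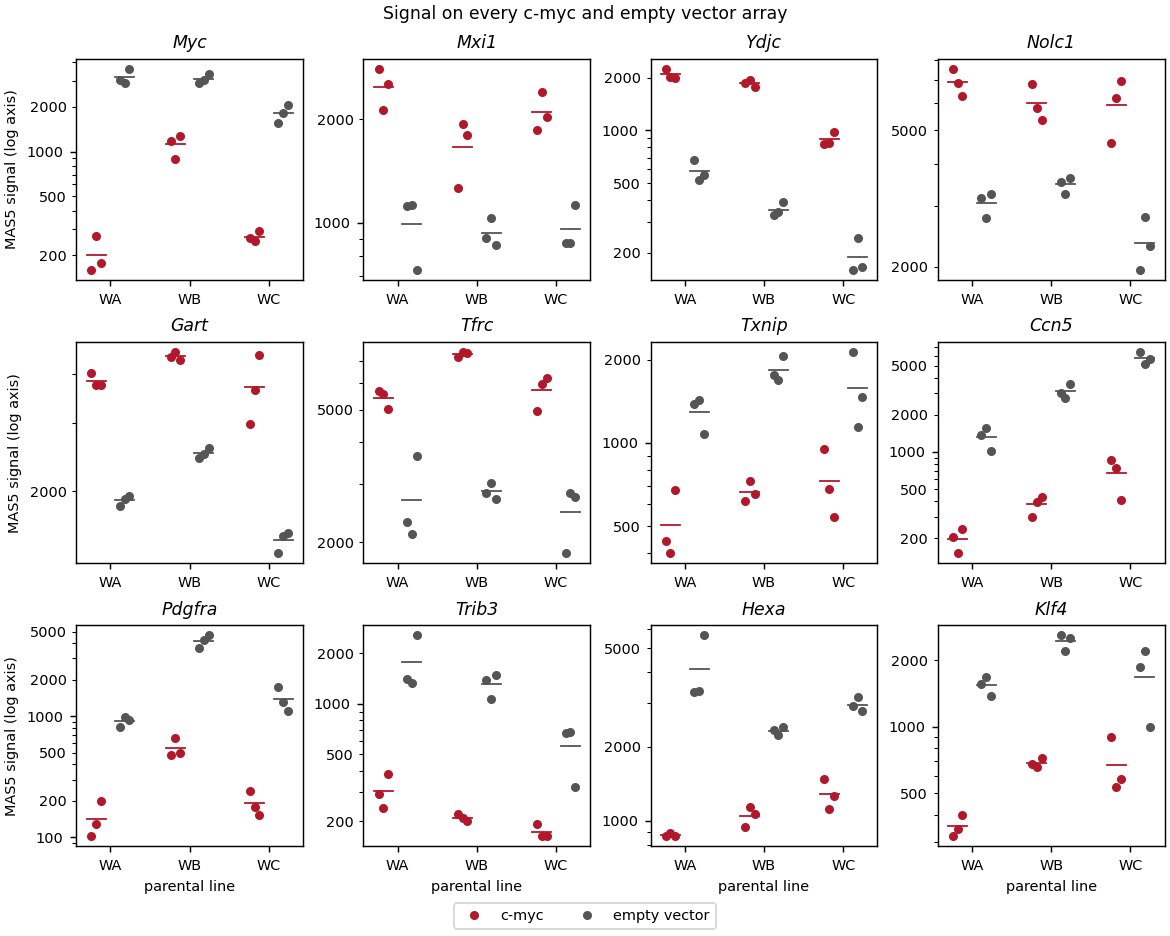
Each panel gives the MAS5 signal (log axis) of 1 gene on every array by parental line, c-myc arrays in red left of empty vector arrays in grey, with a bar at the mean of 3 arrays. Mxi1, Ydjc, Nolc1, Gart and Tfrc lie higher with c-myc in each line, and Myc, Txnip, Ccn5, Pdgfra, Trib3, Hexa and Klf4 lie lower in each line.

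Falls were frequent among genes for what fibroblasts secrete and attach to. The 8 matrix lists, from collagens to proteases, held 169 genes tested, of which 84 were lower (49.7%) and 0 higher, where 9.76% of all genes were lower. The median log2 change was -0.66, with -0.53 in WB, -0.68 in WA and -0.76 in WC. By the F test 71 of the 169 genes (42.0%) had unlike effects in the lines, where 16.2% of all genes did. By list, 13 of 23 collagen chains fell, 19 of 27 genes of collagen processing and crosslinking, 4 of 10 small leucine-rich proteoglycans, 7 of 16 genes of elastic fibres, 5 of 16 matricellular genes, 10 of 14 laminins and other basement membrane genes, 12 of 35 genes of hyaluronan and proteoglycan synthesis and 17 of 31 matrix proteases and inhibitors. In these bulk cultures, fewer cells of a type and less RNA per cell cannot be told apart.

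Among structural proteins, Col5a3, a chain of type V collagen, had signals of 356, 455 and 704 with c-myc, against 593, 1488 and 2155 with the empty vector. The ranges overlapped between the vectors, and the log2 changes were close to each other, at -1.32 in WA, -1.44 in WB and -1.47 in WC (-1.41 together, SE 0.13, adjusted p = 0.00222). Fbln5, which organises elastic fibres, had signals of 431, 856 and 2621 with c-myc, against 4369, 4929 and 8933 with the empty vector. All c-myc arrays were lower, and the log2 change of -2.61 (SE 0.28, adjusted p = 0.00293) ranged from -3.47 in WA to -1.93 in WC. Lama4, a laminin chain, had signals of 16.4, 292 and 450 with c-myc, against 535, 859 and 1941 with the empty vector. The groups lay apart, with a log2 change of -2.68 (SE 0.48, adjusted p = 0.00988) and -3.89 in WA alone. Loxl4, a collagen crosslinking enzyme, fell by 1.29 (SE 0.18), by nearly the same amount in each line.

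Among regulators of matrix, Ccn5, a CCN family protein that restrains growth of smooth muscle cells, had signals of 152, 396 and 863 with c-myc, against 1022, 2972 and 6397 with the empty vector. WC had the highest signals with either vector, and no c-myc array reached an empty vector array. The log2 change was -2.89 (SE 0.25, adjusted p = 0.00202). Papss2, which makes the donor for sulfating proteoglycans, had signals of 95.5, 162 and 369 with c-myc, against 707, 1382 and 1974 with the empty vector. It lay lower on every c-myc array, with a log2 change of -2.68 (SE 0.24, adjusted p = 0.00202). Timp3, an inhibitor of matrix proteases bound to the matrix, fell by 1.45 (SE 0.22), and Mmp19, a matrix metalloproteinase, by 1.61 (SE 0.24), so both a protease and an inhibitor were among the falls.

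Falls also held receptors and adhesion genes. Integrin chains had 6 of 15 down and 0 up, cadherins and other adhesion molecules 8 of 22, and caveolae 6 of 8, where 9.76% of all genes were lower. Cdh11, a cadherin of mesenchymal cells, had signals of 2789, 3674 and 6208 with c-myc, against 6087, 8981 and 13507 with the empty vector. The ranges overlapped slightly, and the log2 change was -1.33 (SE 0.10, adjusted p = 0.00202). Of 15 genes of PDGF and FGF signalling, 6 fell and 0 rose. Pdgfra, a receptor for platelet-derived growth factor, had signals of 102, 199 and 656 with c-myc, against 821, 1306 and 4638 with the empty vector. The WB arrays were highest with either vector, and the vectors did not overlap. Its log2 change was -2.72 (SE 0.39, adjusted p = 0.00538), and the gene's other probe sets gave -1.22 and -0.44. Pdgfrb, the other receptor of this family and a gene known to be repressed by Myc in fibroblasts, fell by 1.15 (SE 0.21). Tgfbr2, a TGF-beta receptor chain, fell by 1.30 (SE 0.11), although TGF-beta and activin genes as a list had 4 of 27 down and 1 up. Cytokine receptors and STAT genes had 11 of 35 down and 1 up, with Osmr, a receptor chain for oncostatin M, at -1.61 (SE 0.20). Snai2, a transcription factor of mesenchymal cells, fell by 1.34 (SE 0.17), and Klf4, a zinc finger factor of growth arrest, by 1.70 (SE 0.20).

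Falls were also frequent among stress-response and lysosomal genes. Of 25 integrated stress response genes, mostly targets of Atf4, 10 fell (40%) and 0 rose, where 9.76% of all genes were lower. Trib3, a pseudokinase, had signals of 163, 210 and 384 with c-myc, against 319, 1339 and 2551 with the empty vector. The ranges overlapped through WC, whose empty vector arrays were the lowest, and the log2 change was -2.14 (SE 0.20, adjusted p = 0.00227). Endoplasmic reticulum chaperones and unfolded protein response genes had 8 of 27 down and 0 up. Dnajb9, a cochaperone of the endoplasmic reticulum, had signals of 488, 644 and 969 with c-myc, against 1470, 1542 and 1786 with the empty vector. Every c-myc array was lower, with a log2 change of -1.25 (SE 0.12, adjusted p = 0.00232).

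Lysosomal enzymes and membrane proteins had 20 of 42 down and 1 up. Hexa, a subunit of beta-hexosaminidase, had signals of 867, 1062 and 1474 with c-myc, against 2221, 2915 and 5627 with the empty vector. The groups lay apart, and the log2 change of -1.49 (SE 0.18, adjusted p = 0.00418) was largest in WA, at -2.15. Map1lc3a, an LC3 protein of autophagosomes, fell by 0.85 (SE 0.08), and 5 of 27 autophagy genes fell in all. Other lists had shares nearer to the 9.76% of all genes that were lower, or below it. Interferon-stimulated genes had 2 of 28 down (7.14%), p53 targets 4 of 26 down (15.4%), and Bcl2 family genes 0 of 15 in either direction, with log2 medians of -0.22, -0.11 and 0.09.

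**Figure D3:**
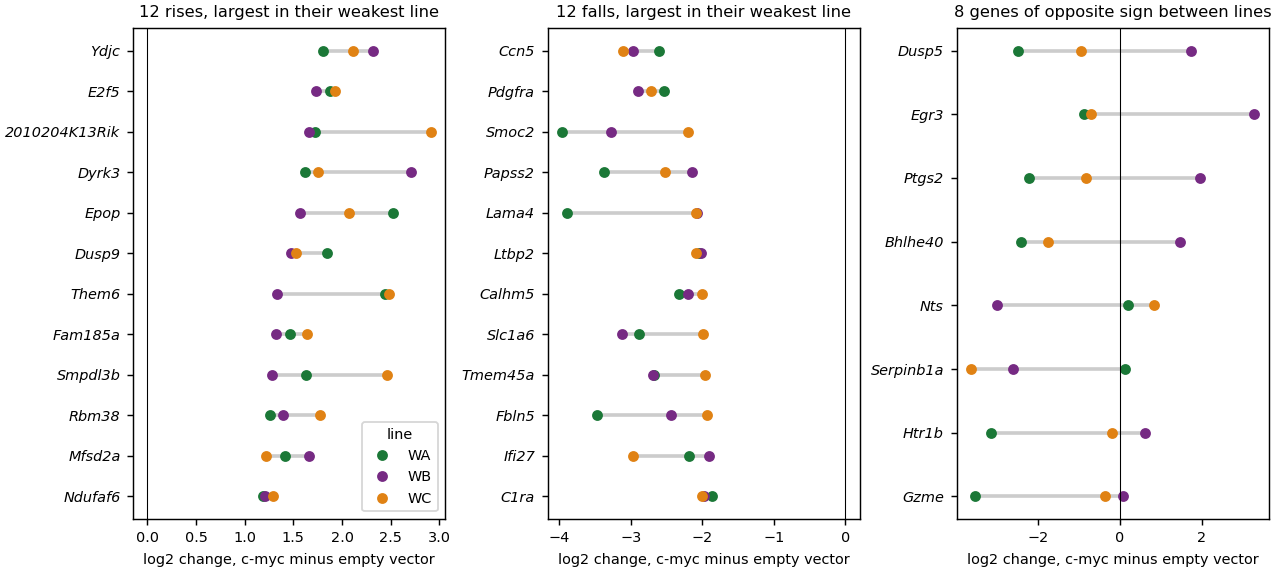
Points give the log2 change, c-myc minus empty vector, in each parental line for the 12 rises and the 12 falls with the largest change in their weakest line and for 8 genes whose change has opposite signs between lines. Ydjc stays between 1.80 and 2.32 and Ccn5 between -3.11 and -2.60, while Egr3 lies at 3.28 in WB and below 0 in WA and WC.

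How alike the lines were was then asked gene by gene. All 1306 rises had a change above 0 in each line, and 1269 of the 1270 falls one below 0. The exception was Serpinb1a, an intracellular protease inhibitor, with a log2 change of 0.13 in WA, against -2.61 in WB and -3.65 in WC, and a call at an adjusted p of 0.0488 that was lost without single arrays. A call over the lines favours genes that move alike, so this count is in part what the test selects. The F test found a c-myc effect that differed between lines for 2105 genes, 16.2% of those tested. It did so for 192 of the 1306 rises (14.7%) and for 297 of the 1270 falls (23.4%). Of the 2105 genes, 1151 had effects of opposite sign in at least 1 pair of lines. The line farthest from the other two was WB for 810 genes, WA for 746 and WC for 549. Across the 13018 genes, which are not independent replicates, the log2 changes of pairs of lines had Pearson's r of 0.53 (WA and WB), 0.60 (WA and WC) and 0.57 (WB and WC).

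Immediate early genes, which growth factor signalling through ERK turns on within minutes, split the lines. Nothing in the labels says that the 3 arrays of a line and vector were separate cultures. Whether the line or the state of a single culture lay behind this split was not tested. Effects were unlike between lines for 28 of the 39 genes of this list, where 16.2% of all genes passed that test, with a log2 median of 0.80 in WB, against -0.53 in WA and -0.48 in WC. Egr3, a zinc finger factor, had signals of 1496, 1595 and 1607 with c-myc in WB, against 126, 144 and 151 with the empty vector. In WA it had 76.3, 58.2 and 56.8 with c-myc, against 98.7, 223 and 114 with the empty vector. In WC it had 130, 107 and 174 with c-myc, against 214, 187 and 326 with the empty vector. Only the WB c-myc arrays were high, and the effect was 3.28 in WB, -0.89 in WA and -0.72 in WC (F test adjusted p = 3.44e-09). Dusp5, a phosphatase that switches ERK off, had signals of 2191, 1782 and 2361 with c-myc in WB, against 572, 705 and 579 with the empty vector. In WA it had 122, 113 and 34.5 with c-myc, against 533, 501 and 669 with the empty vector, and the effects were 1.73 in WB, -2.49 in WA and -0.96 in WC. Junb, an AP-1 subunit, showed the same split, at 2.48 in WB, 0.08 in WA and -0.79 in WC (F test adjusted p = 1.42e-08). Klf4, Klf2 and Dusp1 of this list fell over the lines, by 1.70, 1.22 and 1.33. Each of these genes had a change below 0 in every line, WB included, so they did not share the split in sign.

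In other lists WC stood apart instead of WB. Cholesterol and fatty acid synthesis had a median of -0.21 in WC, against 0.64 in WA and 0.44 in WB, and 22 of its 29 genes differed between lines. Over the lines 3 of these were called higher, of which Fasn, fatty acid synthase, kept its call in all single-array omissions, at 0.67 (SE 0.09, adjusted p = 0.00468). Hmgcs1, an early enzyme of the sterol pathway, was not called and had a log2 change of -0.21 in WC, against 0.72 in WA and 0.71 in WB (F test adjusted p = 0.000303). Integrated stress response genes had a median of -0.09 in WC, against -0.70 in WA and -0.69 in WB, and 18 of 25 differed between lines. Asns, the asparagine synthetase gene of that response, was not called, at -0.58 in WA, -0.63 in WB and 0.16 in WC.

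**Figure D4:**
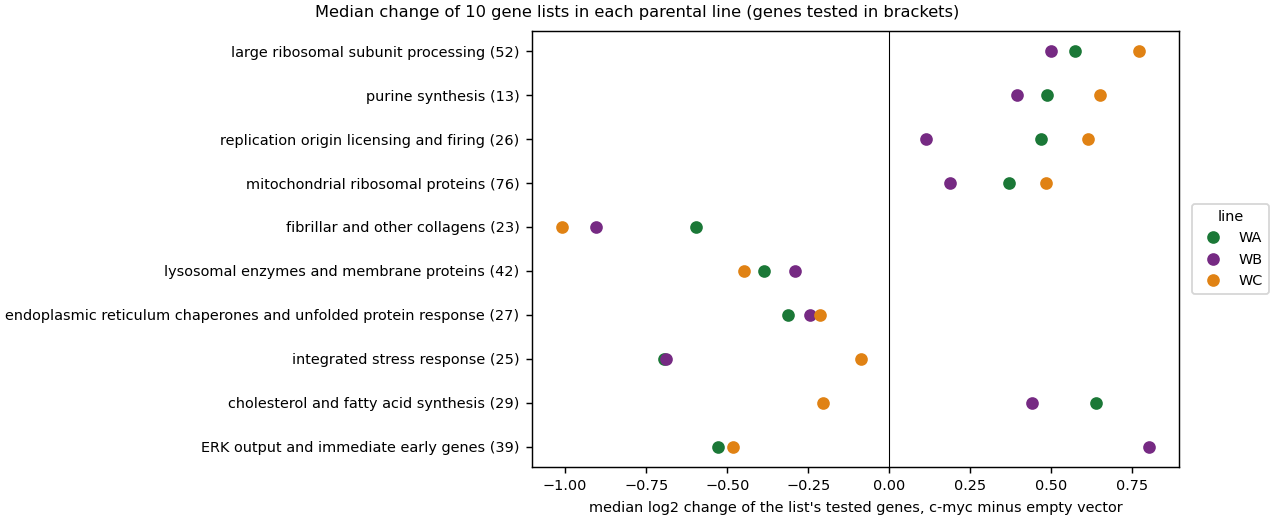
Points give the median log2 change, c-myc minus empty vector, of the tested genes of 10 lists in each parental line. The ERK output and immediate early list lies at 0.80 in WB and at -0.53 and -0.48 in WA and WC, and the cholesterol list lies below 0 in WC alone, at -0.21, while the ribosome and collagen lists keep 1 sign.

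Where c-myc cells differed from cells with another oncogene was tested by c-myc minus v-src in the same lines, a comparison that shares its c-myc arrays with the one above. The c-myc cells were higher than v-src cells for 1777 genes (13.7%) and lower for 1548 (11.9%). Of the 149 ribosome synthesis genes, 105 were higher with c-myc than with v-src and 0 lower, and of the 150 mitochondrial genes 71 were higher and 1 lower. The cytosolic ribosomal proteins gave 38 of 47 higher than with v-src, although only 7 were called against the empty vector. Nolc1 had 2298, 3087 and 3932 on v-src arrays, which lies below all c-myc signals given above, and the log2 difference c-myc minus v-src was 1.06 (adjusted p = 0.00124).

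Among the falls the split was less one-sided. In the 8 matrix lists 52 of 169 genes were lower with c-myc than with v-src and 15 higher. Over all genes 11.9% were lower and 13.7% higher. Collagen chains, with 1 of 23 lower and 3 higher, did not exceed these shares. For matrix proteases and inhibitors 17 of 31 were lower and 2 higher. Pdgfra was lower with c-myc than with v-src by a log2 difference of -3.38 (adjusted p = 0.00147), and Pdgfrb was higher by 0.72 (adjusted p = 0.0406). Lysosomal enzymes and membrane proteins gave 24 of 42 lower and 0 higher, cytokine receptors and STAT genes 21 of 35 lower, and glycolysis and lactate export 11 of 22 lower and 1 higher. Odc1 and Tfrc, both called against the empty vector, differed from v-src cells by 0.00 (adjusted p = 0.991) and 0.23 (adjusted p = 0.114), which did not pass. For Klf4 the difference was -0.14 (adjusted p = 0.668).

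The label of fibroblasts was set against marker genes. All 16 fibroblast markers with a probe set passed the filter on low values, and their summed signal was 93361 to 118752 on c-myc arrays, against 114100 to 172412 on empty vector arrays. Of the 16, 7 were lower (43.8%) and 0 higher with c-myc, where 9.76% of all genes were lower and 10.0% higher. Among the 7 was Thy1, a surface glycoprotein, at -1.74 (SE 0.35, adjusted p = 0.0146). Blood and macrophage markers summed to 1482 to 2503 with c-myc, against 1007 to 2238 with the empty vector, and endothelial markers to 632 to 1011, against 650 to 1094. Epithelial markers summed to 1992 to 5178 with c-myc, against 1474 to 4198, skeletal muscle markers to 1034 to 1536, against 1373 to 2051, and adipocyte and chondrocyte markers to 1762 to 3474, against 1195 to 5351. Under 100 on all 18 arrays were 2 of 13 blood markers (Ptprc and Itgam) and 3 of 10 endothelial ones (Pecam1, Tie1 and Vwf). So were 1 of 13 epithelial markers (Esrp1), 6 of 14 of muscle (Myog among them) and 2 of 12 of adipocytes and chondrocytes (Adipoq among them). The other members reached 100 on at least 1 array. Of the 7 blood, 5 endothelial, 10 epithelial, 6 muscle and 7 adipocyte and chondrocyte genes tested, 0 were called, where 19.8% of all genes were. Neural and glial markers summed to 2702 to 4436 with c-myc, against 4167 to 8575 with the empty vector. Of the 10 tested, 1 fell (10%), Map2, a microtubule protein, by 1.26 (SE 0.19). Sox2, Snap25 and S100b, 3 of the 13 with a probe set, were under 100 on all 18 arrays. The part of other cells in the matrix falls was not tested.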

How the data were processed

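The authors deposited linear MAS5 signal intensities for 45101 probe sets (MAS5 per the submitters' processing notes, its version not given in the sources used here). Each array had the same mean, 500, once the outer 2% on either side were trimmed, so changes are relative to the whole array. Of the probe sets, 34958 had 1 gene symbol in the platform annotation, 932 had several and 9211 were not listed, and only the first were named.

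Log2(signal + 23) was computed, the pseudocount being near the 20th percentile. Probe sets with a mean above the 40th percentile were kept, and per gene the one with the highest mean. Averages of 3 arrays (2 for WB v-src) were fitted with limma 3.58.1 (R 4.3.3, intensity trend) on line and vector, v-src included (4 residual and 3.87 prior degrees of freedom), with Benjamini-Hochberg adjustment. The F test between lines used all 26 arrays (17 residual degrees of freedom), so its p-values rest on array-to-array spread, possibly technical. The fits were checked on simulated data with known changes. For the F test these data held array-to-array spread only, so that check did not cover a spread between cultures. Alternatives changed the scaling, pseudocount, filter, probe set rule, variance model and the arrays or lines left out.

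The members and the 87 gene lists were chosen with earlier results of these data known. Named genes were the 12 rises and 12 falls with the largest change in their weakest line, and the Myc network. Up to 4 called and 2 uncalled members of each list were added by size of change. So were 8 genes of opposite sign between lines, picked by range among genes the F test called. Hmgcs1, Asns, Pes1 and Mdn1 were named outside these rules after their values were seen, the last pair for their promoters. RefSeq windows (GRCm38.p6) were matched to 10452 tested genes. Replicate 1 of WB v-src was not analysed here.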

Additional observations from a re-analysis of the deposited data

Results flagged for a closer look

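Groups had 3 arrays each, too few to test single arrays as outliers. Of the genes named for the size of their change or for opposite signs, 16 had a c-myc effect that differed between lines by the limma F test on the arrays. Values are log2 changes, c-myc minus empty vector, in WA, WB and WC, and the F test's adjusted p.

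Among rises, 2010204K13Rik had 1.73, 1.66 and 2.91 (0.00664) and Smpdl3b 1.63, 1.28 and 2.46 (0.0261). Both were largest in WC.

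Among falls, Smoc2 had -3.96, -3.28 and -2.20 (0.00621), Papss2 -3.37, -2.14 and -2.52 (0.0111), Lama4 -3.89, -2.08 and -2.09 (0.00482), and Fbln5 -3.47, -2.44 and -1.93 (0.00026). These 4 matrix genes changed most in WA. Ifi27 had -2.18, -1.90 and -2.96 (0.0451). Myc had -3.87, -1.46 and -2.66 (9.94e-08).

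With opposite signs, Dusp5 had -2.49, 1.73 and -0.96 (1.72e-07), Egr3 -0.89, 3.28 and -0.72 (3.44e-09), Ptgs2, the prostaglandin synthase gene, -2.22, 1.95 and -0.84 (1.98e-06), and Bhlhe40 -2.43, 1.47 and -1.75 (1.72e-07). In these 4 genes WB was the line above 0. Nts had 0.19, -3.02 and 0.83 (0.000109) and Serpinb1a 0.13, -2.61 and -3.65 (0.000643). Htr1b had -3.16, 0.60 and -0.20 (6.82e-08) and Gzme -3.55, 0.08 and -0.37 (1.11e-05), both largest in WA.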

How the results depend on the processing

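The count of genes called over the lines, 2576, was 2409 to 2598 with 1 array left out. It fell to 466 without line WA, 1339 without WB and 414 without WC, which leaves 2 lines, and of the calls that remained 33.0% were rises without WA and 25.6% without WC, against 50.7% with all lines. It was 5740 with arrays as separate values and 4194 with each pairing of line and vector as a random block, both of which take arrays as replicates. Replicate numbers did not pair arrays (correlations of same-numbered deviations between -0.14 and 0.21), and arrays as separate values with a replicate block gave 5329. The other settings, among them quantile normalization, other pseudocounts and filters and the mean of probe sets, gave 1974 to 2649. The count of genes that differed between lines, 2105, was 1505 to 2204 in all settings and 1716 to 2768 with 1 array left out, the highest without WC c-myc replicate 1, and 1623 with a replicate block on 18 arrays. The count against v-src, 3325, dropped to 1670 when WA was left out, 1914 for WB and 1226 for WC, and was 3159 to 3394 with 1 array left out. Among changes of at least 2-fold, CACGTG was in 17.5% of rises, CACATG in 4.76% of rises and TGANTCA in 11.2% of falls. Of 306 named genes that were called, 270 kept the call with any 1 array left out, 242 in all processing alternatives and 241 in both. Without WA 128 kept it, without WB 216 and without WC 121. The only reversed value was that of Per3, called at 0.52, which was -0.11 with the mean of probe sets. The cause of these shifts was not tested. Weak signals limit detection, as their SE was larger.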

Other observations

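Some other gene lists also held called genes. Of 41 semaphorins, ephrins, slits and their receptors, 8 fell (19.5%) and 1 rose with c-myc, where 9.76% of all genes were lower and 10.0% higher. Nrp1, a coreceptor for semaphorins and VEGF, fell by 1.28 (SE 0.18, adjusted p = 0.00523), and Sema3a, a secreted guidance cue, by 1.29 (SE 0.26, adjusted p = 0.0139). Of 17 imprinted growth genes 4 fell (23.5%) and 0 rose, among them Ndn, a growth suppressor known from neurons, at -1.04 (SE 0.16, adjusted p = 0.00617). Of 12 genes of polycomb repressive complex 2 and its partners, 5 rose (41.7%) and 0 fell. Ezh2, the methyltransferase of that complex, had signals of 2568, 3030 and 3293 with c-myc, against 1688, 2166 and 2629 with the empty vector, and rose by 0.50 (SE 0.10, adjusted p = 0.0119). The ranges overlapped slightly. Dnmt3b, a DNA methyltransferase, had signals of 201, 313 and 481 with c-myc, against 81.0, 145 and 199 with the empty vector, and rose by 1.17 (SE 0.21, adjusted p = 0.00924). Its arrays lay apart between the vectors.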
